A study of Mus musculus with 4 samples.

Results

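Genes used as markers of tumour-initiating cells were followed in Met-low and Met-high cells, the populations sorted from the mouse melanoma line B16-F10 by how much Met receptor they carried on the surface. The set held 9 genes, *Cd44*, *Prom1*, *Cd24a*, *Alcam*, *Mcam*, *Cd34*, *Aldh1a1*, *Aldh1a3* and *Nes*, of 20832 genes that had a named probe on the array, and all 9 had at least 1 probe. The members were chosen with earlier results of these data known. Their probes were taken by name alone: every probe whose accession belonged to a member in mouse RefSeq was used, 15 probes in all. Both populations were untreated cells of this single line, separated with a cell sorter and then cultured apart for 3 days, and 2 independently prepared RNA samples of each were hybridised to 1-colour Agilent arrays. No transgene, allele or agent distinguished the groups, and the fraction was defined by surface Met at the time of sorting, not at the time of RNA extraction.

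CD44, prominin-1 (CD133), CD24, ALCAM (CD166), MCAM (CD146) and CD34 are cell surface proteins by which cells that start tumours have been isolated from various cancers. ALDH1A1 and ALDH1A3 oxidise retinaldehyde to retinoic acid and account for much of the aldehyde dehydrogenase activity that is used as a stem cell trait in tumours, melanoma included. Nestin is an intermediate filament of neural and neural crest progenitors and is found in melanoma. MCAM was first described as a melanoma antigen.

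All 4 arrays lay on 1 slide and were read in 1 scan, the Met-low arrays in positions 1 and 2, the Met-high arrays in 3 and 4. Effects of position and population therefore cannot be told apart. Per array, the 75th percentile of signal ranged from 858 to 1331 intensity units per array, and a signal was rated well above background from 27.6 to 41.4 units upward, depending on the array. Signals are given in these units or as log2 of the signal over that array's 75th percentile. *Met* itself had log2 signals of -0.26 and -0.89 in Met-low replicates 1 and 2, and of 1.03 and -0.43 in Met-high replicates 1 and 2. Met-high replicate 2 thus lay between the Met-low arrays for the transcript of the sorted receptor, and the differences of the members are given with and without it. The 8 melanocyte lineage markers examined, among them *Mitf*, *Sox10*, *Dct* and *Pmel*, were well above background on all 4 arrays and none was called different between the populations. Markers of other cell types gave a mixed picture. *Ptprc* of leukocytes, *Cdh5*, *Tek* and *Emcn* of endothelium and *Dcn*, *Lum* and *Pdgfra* of fibroblasts were well above background on no array. In the same lists, *Itgam* and *Cd3e* of leukocytes, *Kdr* of endothelium and *Col1a2* of fibroblasts were well above background on all 4 arrays, and *Pecam1* of endothelium on 3. Of the 5 keratinocyte markers, 4 were detected on some of the arrays and 1 on none.

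The markers differed first in whether they were detected at all. *Mcam*, *Cd44*, *Nes*, *Aldh1a3* and *Alcam* were well above background on all 4 arrays. *Aldh1a1* was detected on 3 arrays, *Prom1* on 1, and *Cd24a* and *Cd34* on none. Of the 15 probes, 7 were well above background on all arrays, 3 on some and 5 on none. The filter for testing, detection on both arrays of at least 1 population, was passed by 8 probes of 6 members. *Prom1*, *Cd24a* and *Cd34* had no probe that passed, and the arrays therefore give no difference between the populations for these 3 genes.

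**Figure D1:**
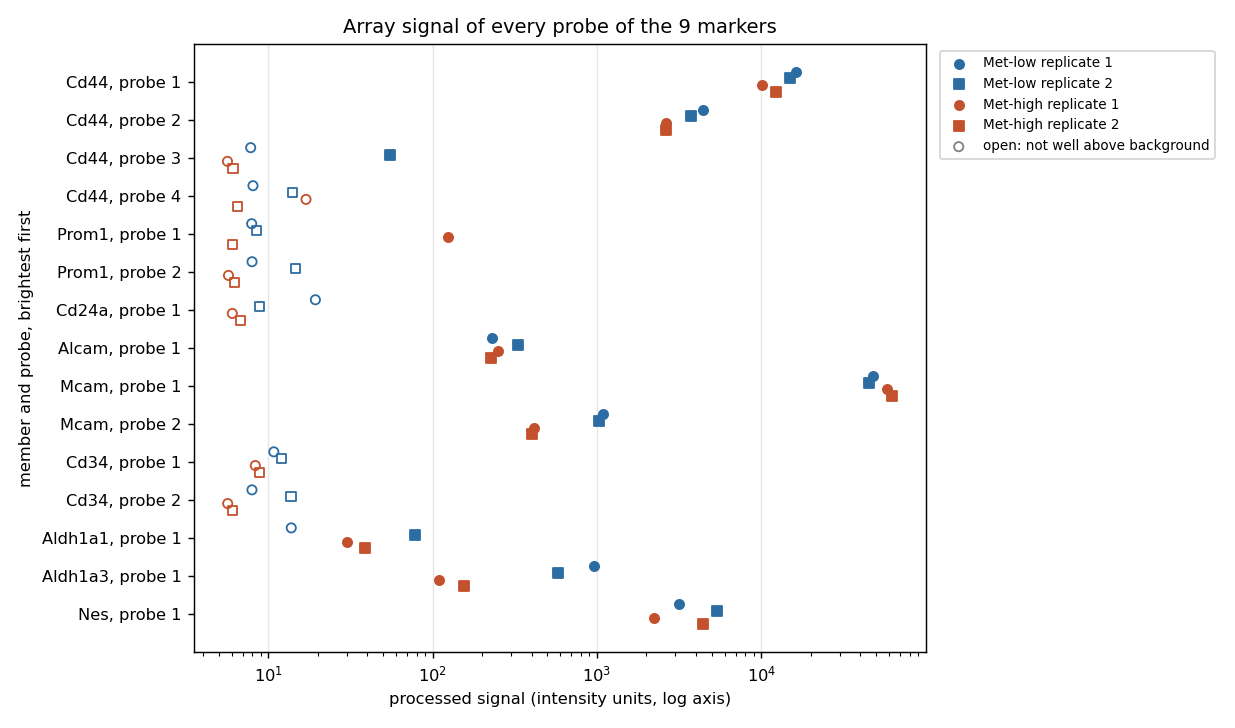
Processed signal in intensity units (log axis) of each of the 15 probes of the 9 markers on the 4 arrays, with Met-low in blue, Met-high in red, circles for replicate 1 and squares for replicate 2. Filled symbols were well above background, and the probes of *Cd24a* and *Cd34* have open symbols throughout while the first *Mcam* probe lies between 45011 and 62592 units.

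Because the set divides into detected and undetected genes, the promoters of the members were examined for features that the choice of members did not use. RefSeq windows (GRCm38.p6, 250 bases before and 50 bases after the transcription start) matched 7 members, with 9 windows. *Aldh1a3*, detected on all arrays, and *Cd24a*, detected on none, had no window. The GC box GGGCGG, searched on both strands, was found in the windows of all 4 members that were detected on every array and had a window, 5 times for *Mcam*, 2 times each for *Alcam* and *Nes* and 1 time for *Cd44*. It was absent from the windows of *Cd34* and *Aldh1a1* and present in 1 of the 2 windows of *Prom1*. The share of windows with this motif was 35.7% over all 32851 windows, 62.3% for genes detected on all 4 arrays and 27.6% for genes detected on none. The bases before the start are shown for the extremes of this contrast, *Mcam* at chr9:44134408-44134657 (plus strand) and *Cd34* at chr1:194938571-194938820 (plus strand), with each GC box in capitals on either strand.
Mcam: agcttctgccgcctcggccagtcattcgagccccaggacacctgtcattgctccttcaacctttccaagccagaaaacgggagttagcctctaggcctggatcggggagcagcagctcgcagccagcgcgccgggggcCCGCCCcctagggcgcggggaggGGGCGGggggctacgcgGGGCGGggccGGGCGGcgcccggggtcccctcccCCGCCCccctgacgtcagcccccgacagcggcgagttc
Cd34: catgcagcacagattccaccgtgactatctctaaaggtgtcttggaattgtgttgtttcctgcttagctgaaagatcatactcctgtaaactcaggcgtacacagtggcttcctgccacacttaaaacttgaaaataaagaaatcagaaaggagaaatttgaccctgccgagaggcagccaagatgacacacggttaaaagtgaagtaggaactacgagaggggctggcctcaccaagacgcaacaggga
The whole window had a GC content of 72.7% for *Mcam* and 50% for *Cd34*, beside medians of 60.7% for windows of genes detected on all arrays and 50.3% for windows of genes detected on none. The AP-1 motif TGANTCA occurred in both windows of *Prom1* and in 1 window of *Aldh1a1*, against 7.81% of all windows. The E-boxes CATGTG and CACGTG, the former a form bound by Mitf, and the TATA box TATAAA, all searched on both strands, were found in none of the 9 windows, and 14.2%, 7.15% and 13.6% of all windows held them. No match to a search motif overlapped another in the stretches printed.

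*Aldh1a3*, a retinaldehyde dehydrogenase, was the only member called different between the populations, and it was higher in Met-low cells. Its probe read 961 and 576 units in Met-low replicates 1 and 2 and 109 and 154 units in Met-high replicates 1 and 2. Both Met-low arrays lay above both Met-high arrays, and the signal was well above background on each. The log2 signal averaged -0.59 ± 0.88 for the Met-low samples and -2.91 ± 0.09 for the Met-high samples (mean ± SD, n = 2 each). The difference, Met-high minus Met-low, was -2.32 (SE 0.41, 95% interval -3.36 to -1.28), a 5.00-fold higher signal in Met-low samples (adjusted p = 0.0412 in limma over all genes). It was the only member past 2-fold, 1 of 6 tested, where 7.73% of all genes were. Likewise, 1 of 6 members was called where 5.77% of all genes were, 457 higher in Met-low and 233 higher in Met-high cells. With the 75th percentile taken over probes detected on all arrays, that division was 595 to 140, and the median of all genes moved from 0.10 to -0.05 on the log2 scale.

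Without Met-high replicate 2, the *Aldh1a3* difference was -2.39 (adjusted p = 0.0434). It was -1.70 without Met-low replicate 1 and -2.94 without Met-low replicate 2, and the call was kept in each of the 4 fits that left out an array. The adjusted p was close to the threshold, and the call was lost with quantile normalization (adjusted p = 0.0591), without the filter on dim probes (0.171) and when every probe was tested by itself (0.0767). Of 5 fibroblast markers 1 was tested, *Col1a2*, a collagen gene, with a difference in the same direction, -1.10 (adjusted p = 0.0311). That call was lost whenever an array was left out (adjusted p 0.0640 to 0.101), with -1.15 without Met-high replicate 2. The summed scaled signal of the list, most of it from *Col1a2*, was 0.620 and 0.676 in Met-low and 0.298 and 0.312 in Met-high samples. The other markers of the list were undetected, as given above, except *Col1a1*, which was detected on 1 array. Whether fibroblasts were present in these samples of a single cultured line was not tested, nor was any part of them in the *Aldh1a3* result. In RNA from whole populations, fewer expressing cells and less RNA per cell cannot be told apart.

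*Aldh1a1*, the close relative of *Aldh1a3*, was near the limit of detection. Its probe read 13.8 and 78.0 units in Met-low replicates 1 and 2 and 30.4 and 38.7 units in the Met-high replicates, and only the first of these was not well above background. Both Met-high signals lay under the lowest signals rated well above background on the Met-low arrays, 39.1 and 41.4 units. The gene passed the filter through the Met-high arrays alone. The Met-low arrays enclosed the Met-high arrays, with log2 signals of -5.09 ± 1.41 and -4.83 ± 0.02. The difference was 0.26 (SE 0.63, 95% interval -1.34 to 1.86, adjusted p = 0.826), an interval that holds more than 2-fold changes in either direction. It was set by the Met-low samples, being -0.74 (adjusted p = 0.224) without replicate 1. Without replicate 2 the only Met-low signal left was not well above background, and no difference is read from that fit. Without Met-high replicate 2 it was 0.27. The other dehydrogenases of this class gave little signal, with *Aldh1a7* detected on no array and *Aldh1a2* at 89.9 units on Met-low replicate 2 and between 8.5 and 10.5 units on the other arrays.

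*Mcam*, an immunoglobulin-type adhesion molecule, had the strongest signals among the members and was measured by 2 probes that went in opposite directions. The first probe read 47676 and 45011 units in Met-low replicates 1 and 2 and 57625 and 62592 units in Met-high replicates 1 and 2. On this probe both Met-high arrays were above both Met-low arrays, by 0.57 (SE 0.25, 95% interval -0.05 to 1.20, adjusted p = 0.219), a ratio of 1.49. The second probe read 1090 and 1029 units in the Met-low samples and 414 and 402 units in the Met-high samples. Here the order was the opposite, without overlap, by a difference of -1.18 (SE 0.28, 95% interval -1.90 to -0.45), with an adjusted p of 0.112 over all probes, of which 2.63% were called. Neither probe passed the test, and both carry the same accession. RefSeq lists 2 curated transcripts of the gene.

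The change in the gap between the *Mcam* probes had a smaller SE than the change on either probe alone. Within each array, the first probe minus the second rose by 1.75 (SE 0.13, 95% interval 1.39 to 2.11) from Met-low to Met-high cells. Over the 3075 genes with 2 probes past the filter, this had the third smallest p in limma, with an adjusted p of 0.155. No gene was called in that comparison (0 of 3075, or 0%), and 230 genes had an unadjusted p under 0.05. The comparison was chosen after the *Mcam* values were seen. The change in the gap was 1.67 to 1.83 when an array was left out, and 1.61 with normexp background correction or quantile normalization. A scaling factor of an array cancels within the gap, so the change of percentile could not move it and says nothing of its stability. The mean of the gene's probes gave a difference of -0.30. Without Met-high replicate 2 the probes gave 0.70 and -0.97.

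*Cd44*, the hyaluronan receptor, was strongly expressed in both populations. Its first probe read 16295 and 14980 units in Met-low replicates 1 and 2 and 10033 and 12212 units in Met-high replicates 1 and 2. After scaling, the second Met-low array lay within the range of the Met-high arrays, and the difference was -0.30 (SE 0.24, 95% interval -0.92 to 0.32, adjusted p = 0.476). The second probe read 4420 and 3728 units in the Met-low samples and 2614 and 2638 units in the Met-high samples, with a difference of -0.43 (SE 0.31, 95% interval -1.24 to 0.38, adjusted p = 0.462 over all probes). Both probes had the higher mean in Met-low cells, and the gap between them changed by 0.13 (95% interval -0.32 to 0.58). The probes gave -0.26 and -0.25 when Met-high replicate 2 was left out, and the first probe gave 0.010 when Met-low replicate 1 was. The fourth probe of *Cd44* was well above background on no array, and the third probe only on Met-low replicate 2, at 55.4 units.

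*Alcam*, an adhesion molecule of the same immunoglobulin class as *Mcam*, showed the smallest difference of the members tested. It read 231 and 329 units in Met-low replicates 1 and 2 and 251 and 228 units in the Met-high replicates. The log2 signals were -2.02 ± 0.01 and -2.03 ± 0.36, so that the Met-low arrays lay inside the range of the Met-high arrays. The difference was -0.01 (SE 0.22, 95% interval -0.56 to 0.54, adjusted p = 0.983), and this interval lies within 2-fold in either direction. It was 0.25 without Met-high replicate 2 and -0.27 without Met-high replicate 1.

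*Nes*, encoding nestin, read 3166 and 5378 units in Met-low replicates 1 and 2 and 2230 and 4422 units in Met-high replicates 1 and 2. Replicates within a population differed more than the populations did, and the arrays overlapped. The difference was -0.20 (SE 0.26, 95% interval -0.84 to 0.45, adjusted p = 0.658). Without Met-high replicate 1 it was 0.11, and without Met-high replicate 2 it was -0.50. *Vim*, the most widely used partner filament of nestin, also had strong signals and overlapping arrays, with a difference of 0.20 (SE 0.18, 95% interval -0.26 to 0.66, adjusted p = 0.526).

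**Figure D2:**
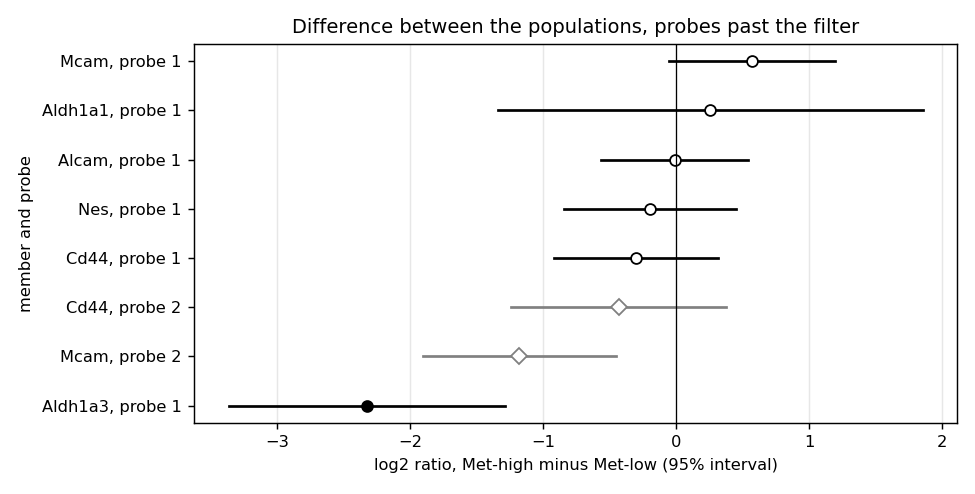
Difference in log2 signal, Met-high minus Met-low, for the 8 probes past the filter, with 95% intervals from limma; black circles are the brightest probe of each gene in the fit over genes and grey diamonds are second probes in the fit over probes. The filled symbol marks the adjusted p under 0.05 of *Aldh1a3* at -2.32, and the *Mcam* probes lie on opposite sides of 0.

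Across the 6 members tested, the mean was higher in Met-low cells for 4 and in Met-high cells for 2, with a median difference of -0.10 beside 0.10 over all genes. The arrays of the populations did not overlap for 2 of the 6, *Aldh1a3* and *Mcam*, where 58.3% of all genes tested showed no overlap. Among the 5 members that were not called, each interval of the brightest probe included 0. The interval of the second *Mcam* probe, -1.90 to -0.45, did not. The sign of the difference changed under at least 1 alternative for *Cd44*, *Alcam*, *Mcam*, *Aldh1a1* and *Nes*, and under none of those run for *Aldh1a3*.

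**Figure D3:**
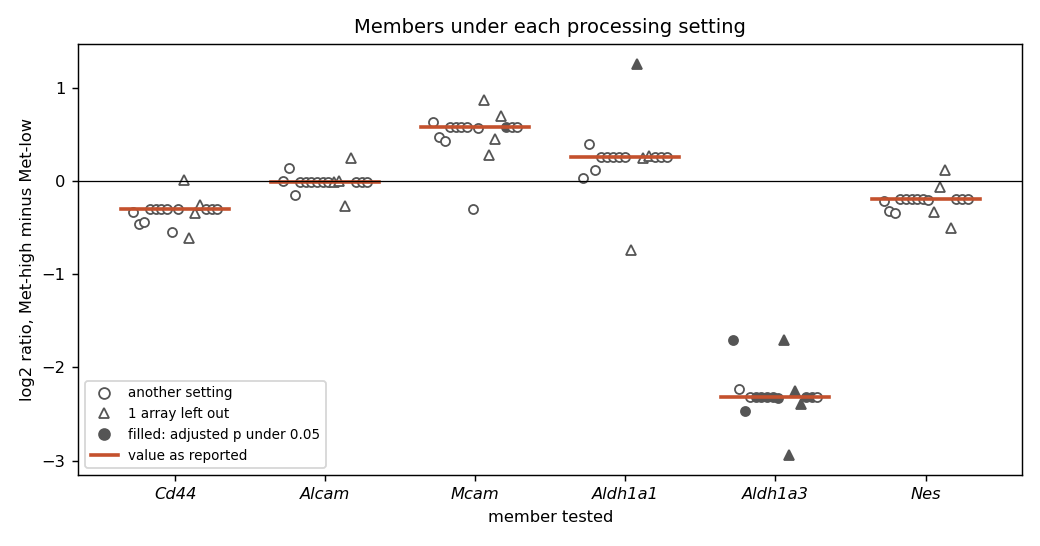
Log2 difference, Met-high minus Met-low, of the 6 members tested, with the value as reported (red bar), other processing settings (circles) and fits with 1 array left out (triangles); filled symbols have an adjusted p under 0.05. *Aldh1a3* stays between -2.94 and -1.70, while the values of *Aldh1a1* spread from -0.74 to 1.26 on either side of 0, the highest of them against a single Met-low array that was not well above background.

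*Prom1*, which encodes prominin-1, was seen on a single array. Its brighter probe read 7.95 and 8.49 units in Met-low replicates 1 and 2, 124 units in Met-high replicate 1 and 6.08 units in Met-high replicate 2. The scanner's own error estimate for the 124 units was 13.6 units. The other *Prom1* probe, designed to a different accession of the gene, lay between 5.75 and 14.7 units and was well above background on no array. Since the signal was seen on 1 of 2 Met-high arrays and on no Met-low array, no difference between the populations was formed. Met-high replicate 1 also had the highest *Met* signal of the 4, and a link of the *Prom1* signal to *Met* was not tested. *Prom2*, the paralogue of *Prom1*, was detected on no array.

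*Cd24a* and *Cd34*, encoding a mucin-like adhesion protein and a sialomucin, stayed at background. The *Cd24a* probe read 19.4 and 8.86 units in Met-low replicates 1 and 2 and 6.06 and 6.84 units in the Met-high replicates. The probes of *Cd34* ranged from 5.68 to 13.8 units over all arrays. These values lie under the lowest signal rated well above background on any array, 27.6 units, and no ratio was formed from them. A probe at background does not show that the transcript was absent: the fourth *Cd44* probe was at background although other probes of that gene were bright. For *Cd24a* there was no further probe to compare. *Podxl*, a sialomucin of the CD34 family, was likewise detected on no array.

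Genes that work with the members were examined in 6 lists with 89 genes, all of them on the array, of which 46 passed the filter, 4 were called higher in Met-low and 1 was called higher in Met-high cells, 5 of 46 where 5.77% of all genes tested were called. The median difference of a list is given beside that of all genes tested, 0.10, and kept its sign for each list under the other scalings. In the list of retinoid enzymes, carriers and receptors, 14 of 22 genes were tested, with a median of 0.33. *Rarb*, a retinoic acid receptor whose own gene is induced by retinoic acid, read 95.3 and 114 units in Met-low and 279 and 302 units in Met-high samples. It was the 1 gene called in this list, higher in Met-high cells by 1.67 (SE 0.19, adjusted p = 0.0142), the opposite direction to *Aldh1a3*, and by 1.80 without Met-high replicate 2. *Cyp26b1*, which encodes a retinoic acid hydroxylase and was picked after its values were seen, read 2391 and 1988 units in Met-low and 727 and 420 units in Met-high samples. Its difference of -1.78 (SE 0.45) had an adjusted p of 0.0882 and did not pass the test. It was -1.20 (adjusted p = 0.145) without Met-high replicate 2 and -2.36 (adjusted p = 0.00919) without Met-high replicate 1. By its brightest probe no other gene of this list was called. The second probe of *Rxrg*, a retinoid X receptor named after its values were seen, read 55.8 and 163 units in Met-low and 454 and 573 units in Met-high samples. That probe was higher in Met-high samples by 2.62 (SE 0.37, adjusted p = 0.0476 over all probes), while the brightest *Rxrg* probe differed by 0.46 (adjusted p = 0.253 over genes). Its call was lost without Met-high replicate 1 (adjusted p = 0.108) or 2 (2.63, adjusted p = 0.106). By the brightest probes, the mean was higher in Met-low samples for 5 genes and in Met-high samples for 9 (6 and 8 with the percentile over detected probes).

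Of the immunoglobulin-type adhesion molecules, 7 of 13 were tested, with a median of -0.19. *Jam2*, a junctional adhesion molecule, read 294 and 425 units in Met-low and 64.6 and 91.5 units in Met-high samples and was called higher in Met-low cells, with a difference of -2.0 (SE 0.16, adjusted p = 0.00761). It was -2.07 without Met-high replicate 2. The normexp background correction brought *Jam2* to -1.30, *Rarb* to 1.07 and *Aldh1a3* to -1.71, each still called. Of the intermediate filaments, 6 of 12 were tested with a median of 0.26, and *Gfap*, the filament of astrocytes and Schwann lineage cells, was called higher in Met-low cells, with a difference of -1.05 (SE 0.18, adjusted p = 0.0361). The *Gfap* call was lost with normexp (-0.69, adjusted p = 0.0676), quantile normalization (adjusted p = 0.0591) and the mean of its probes (adjusted p = 0.0735).

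Among 18 other stem cell and tumour-initiating cell markers, 9 were tested and the median was -0.60. The mean was higher in Met-low samples for 6 of them and in Met-high samples for 3 (8 and 1 with the percentile over detected probes). *Kdm5b*, a histone H3 lysine demethylase that marks slowly cycling melanoma cells, read 1150 and 1460 units in Met-low and 510 and 659 units in Met-high samples, a difference of -0.96 (SE 0.16, adjusted p = 0.0353). *Abcg2*, the drug efflux transporter of side population cells, read 3129 and 3868 units in Met-low and 1451 and 1925 units in Met-high samples, a difference of -0.86 (SE 0.16, adjusted p = 0.0487). For both genes each Met-low array was above each Met-high array, where 58.3% of all genes tested showed no overlap in either direction. Their direction was that of *Aldh1a3* and *Col1a2*, and of 457 of the 690 genes called. The calls of *Kdm5b*, *Abcg2* and *Gfap* were lost whenever an array was left out, with adjusted p from 0.0799 to 0.151, from 0.104 to 0.21 and from 0.0536 to 0.142, while their differences stayed negative. With every probe tested by itself, *Kdm5b* (adjusted p = 0.0610 in limma) and *Abcg2* (0.0785) were not called, nor without the filter on dim probes (0.171 and 0.213). With the mean of each gene's probes the *Abcg2* call was lost (0.0558). The second *Kdm5b* probe differed by -1.06 (adjusted p = 0.105 over all probes). Of these 18 markers, 8 were well above background on no array, among them *Sox2*, *Lgr5*, *Abcb5* and *Cxcr4*. Another 9 were well above background on all 4 arrays, among them *Nanog* at 46.5 to 94.5 units. The remaining 1, *Ngfr*, was detected only on Met-low replicate 2, at 73.8 units. These examples were named after their values were seen.

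No gene was called among the 7 of 14 tested CD44 ligands, hyaluronan enzymes and partners (median -0.16) or among the 3 of 10 tested relatives and ligands of CD34, prominin and CD24 (median -0.18). By limma's unadjusted p, 1 gene of each list was under 0.05, *Hyal1* with a difference of -0.84 and *Podxl2* with -1.12, both named for this reason after their values were seen. The hyaluronan synthases *Has2* and *Has3* and the E-selectin, P-selectin and L-selectin genes, which encode the makers of the ligand of CD44 and the binding partners of sialomucins, were at background on all arrays, while *Has1*, another synthase, read 129 units on Met-low replicate 1 and was at background on the others.

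**Figure D4:**
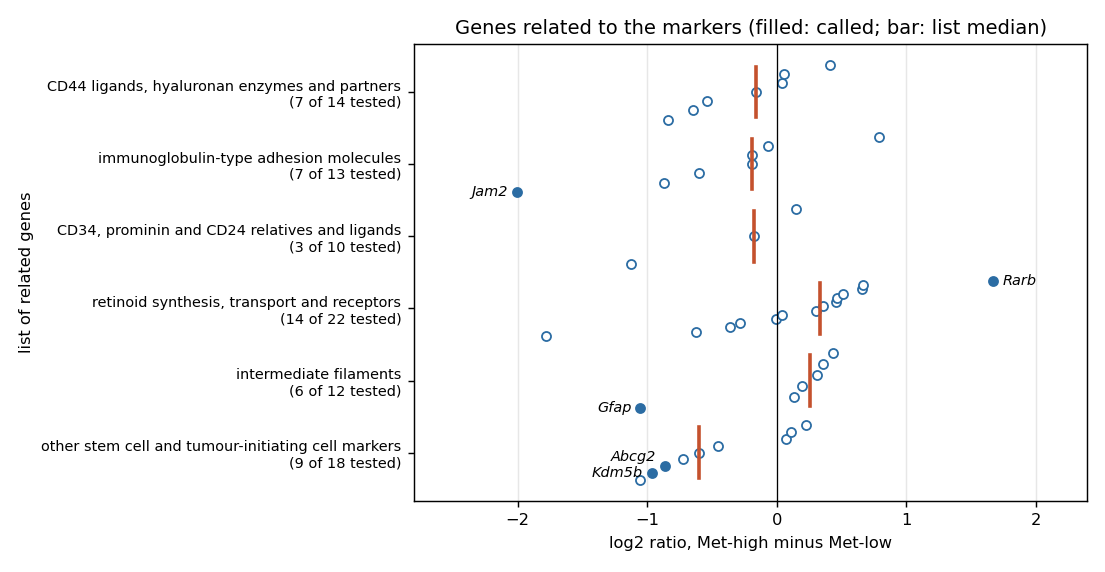
Log2 difference, Met-high minus Met-low, of the 46 related genes tested, by list, with the list median as a red bar. Filled points have an adjusted p under 0.05, and of these *Rarb* at 1.67 lies to the right of 0 and *Jam2*, *Gfap*, *Kdm5b* and *Abcg2* lie to the left.

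The genes whose profile over the 4 arrays was most like that of *Aldh1a3*, by Euclidean distance between centred log2 signals among 11947 genes, were *Trpv4*, *Tgfbi* and *Fstl1*, at distances of 0.40, 0.41 and 0.43. *Trpv4* encodes a calcium-permeable channel, and *Tgfbi* and *Fstl1* encode secreted proteins. Their differences between the populations were -2.15, -2.55 and -2.18 on the log2 scale, and -1.98, -2.69 and -2.09 without Met-high replicate 2. Because the genes were chosen for this likeness, differences close to that of *Aldh1a3* follow from the choice. The likeness is a description over 4 arrays.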

How the data were processed

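RNA of 2 Met-low and 2 Met-high samples was measured on 1-colour arrays. The authors deposited the scanner's output, in which each spot has a background-corrected Cy3 intensity, and a table of processed log2 values. Per the labels the software was Agilent Feature Extraction 10.7.3.1, while the file headers give version 11.0.1.1. From the intensity (floor 0.01, which changed 0 spots), log2 values were calculated over the 75th percentile of the non-control spots on that array. Between 207 and 232 flagged spots per array were left out, and spots of a probe were averaged. Accessions named 27427 of 39429 probes through RefSeq (GRCm38.p6). Each gene was represented by its brightest probe, and a gene was kept if detected (well above background) on each array of 1 population or both. The 11958 genes kept were tested in limma 3.58.1 (R 4.3.3; lmFit, then eBayes), two-sided, with Benjamini-Hochberg adjustment over all genes and a threshold of 0.05. Second probes came from the same fit over 19796 probes. With so few arrays an exact permutation test cannot reach 0.05 and none is given, and the number of arrays limits the precision.

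Set against the scanner values, the deposited log2 table was the same 75th-percentile scaling centred on each probe's median, with 93.3% to 99.8% of probes per array within 0.01, and it served as an alternative. The members and the lists of related genes were chosen with earlier results of these data known. The genes named by rule were all members and the called genes of each list (at most 4 in each direction). *Met*, the cell type markers, the nearest family members and the 3 profiles nearest to a called member were also named by rule. The hyaluronan synthases, the selectins and the genes said to be named after their values were seen fell outside this rule. Alternatives changed the background correction (normexp with offset 50 on the median signals), scaling, filter, floor, flagged spots, choice of probe, variance model, threshold and arrays. The fits were tested on simulated data. Proteins were not analysed here. Figures were made with Python 3.11.15 and matplotlib 3.10.9.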

Additional observations from a re-analysis of the deposited data

Results flagged for a closer look

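Probes of 2 members that failed the filter for testing nevertheless had a signal well above background on a single array. The brighter *Prom1* probe read 124 units on Met-high replicate 1, where the lowest signal rated well above background was 27.6 units, and was undetected on the other arrays. The third *Cd44* probe read 55.4 units on Met-low replicate 2, where that limit was 41.4 units, and was undetected on the other arrays. Neither signal was seen in the second sample of its population.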

How the results depend on the processing

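The count of 690 genes called fell to 7 without the filter on dim probes and to 1 with the methods' t-test after adjustment (the methods name it for comparisons of 2 groups in general, not for the arrays), and was 2211 at an unadjusted p under 0.05 in that t-test. Leaving out an array gave 636 to 888 genes. The count of 1 member called was 0 with quantile normalization, 0 without the filter on dim probes, 0 with every probe tested by itself, and 0 with the methods' t-test, adjusted or not. Leaving out an array gave 1 to 2 members called. The further members were *Aldh1a1* without Met-low replicate 2 and *Prom1* without Met-high replicate 2, both set against Met-low signals that were not well above background, so that neither is read as a difference. Members past 2-fold numbered 2 without the filter, and 1 to 2 when an array was left out, through the same genes. The difference changed sign with quantile normalization for *Alcam* (0.14) and with the mean of its probes for *Mcam* (-0.30). It changed sign when an array was left out for *Cd44* (-0.61 to 0.010), *Alcam* (-0.27 to 0.25), *Aldh1a1* (-0.74 to 1.26) and *Nes* (-0.50 to 0.11), as did the gap between the *Cd44* probes (-0.0040 to 0.27). The cause was not tested. Replicate numbers were shared between the populations without a stated pairing, and the deviations of same-numbered arrays correlated at 0.54 over 11947 genes. With the replicate block, 3556 genes and 2 members were called, *Aldh1a3* (adjusted p = 0.0172) and *Mcam* (adjusted p = 0.0384). The block also called the second *Mcam* probe (adjusted p = 0.0219) and *Cyp26b1* (adjusted p = 0.00573). Slide and scan could not serve as a block, since there was 1 of each. *Prom1*, *Cd24a*, *Cd34* and most *Aldh1a1* values lay near background, which limits what these arrays show of them.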
